A study of Homo sapiens with 2 samples.

Results

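The genes described here are 7 that human primordial germ cells switch on, or keep, when they are specified: SOX17, PRDM1, NANOS3, SOX15, DND1, PDPN and KLF4. They were taken by symbol from the 33538 genes counted, and each symbol matched 1 gene. Transcripts were counted cell by cell in 2 libraries of the established human embryonic stem cell (hESC) line H1. BMP4 (bone morphogenetic protein 4), a signal that drives hESCs to differentiate, had been given to the cells of both at 50 ng/ml over 48 h in mTeSR1 medium. The library labelled WT came from H1 cells that had not been edited. The library labelled GATA3 KO (KO below) came from 1 clone, KO-GATA3-06, in which Cas9 had been aimed at the gene of the transcription factor GATA3. That clone was picked from an H1 line with a doxycycline-inducible Cas9 cassette, and genotype cannot be told apart from the clone or the cassette. A protocol note with the library labelled WT gives another BMP4 exposure than 48 h. The 48 h of its title and duration label were used here.

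Primordial germ cells are the founders of sperm and eggs, and in the early embryo BMP signals call them up from a small number of competent cells close to the streak and the amnion. In human cells the transcription factor SOX17 starts the program, PRDM1 (BLIMP1) represses somatic genes downstream of it, and TFAP2C acts beside them, while NANOG and POU5F1 stay on and SOX2 is switched off. The same SOX17 also directs endoderm, where it goes with GATA6 and FOXA2, so SOX17 by itself does not mark a germ cell. NANOS3 and DND1 are RNA-binding proteins that protect germ cells, SOX15 is a SOX factor of early germ cells, PDPN (podoplanin) is a surface glycoprotein used to sort them, and KLF4 is a pluripotency factor that human germ cells also carry.

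After the limits of the study on detected genes and mitochondrial counts, 2519 cells with 99587274 unique molecular identifiers (UMIs, which count captured transcripts) remained in the WT library. In the KO library 4450 cells with 175285931 UMIs remained. The median cell held 44415 and 43131.5 UMIs, and the libraries shared 8 cell barcodes. Levels are given as UMIs per 1000000 UMIs of the library (CPM), with Poisson 95% intervals. There was 1 library per group, so no test was possible, and every interval covers counting error only. GATA3 itself stood at 12.7 and 10.9 CPM. Counts at the 3′ end do not show whether its coding sequence is intact, so each direction below rests on the deposited labels. For the KO clone the study reports edits of both alleles that shift the reading frame, and no GATA3 staining after BMP4. In the whole sample, fewer cells with a transcript and less transcript per cell cannot be told apart by CPM alone.

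The promoters of 5 members are held in the RefSeq table of GRCh38.p14, in 10 windows of 300 bases that run from 250 before to 50 after a start. SOX17 and SOX15 have no entry in it. The windows were searched on both strands for the letters AGATAA and the letters TGATAA, which GATA factors prefer, AACAAT for SOX factors, GCCNNNGGC for TFAP2 factors and CCACACCC for KLF factors. Windows of PRDM1, NANOS3 and PDPN are shown because PRDM1 and PDPN differed between the libraries in opposite directions and NANOS3 did not differ beyond counting error. All 3 lie on the plus strand, base 1 is the first base of the window, and capitals mark the matches.
PRDM1, chr6:106086086-106086385: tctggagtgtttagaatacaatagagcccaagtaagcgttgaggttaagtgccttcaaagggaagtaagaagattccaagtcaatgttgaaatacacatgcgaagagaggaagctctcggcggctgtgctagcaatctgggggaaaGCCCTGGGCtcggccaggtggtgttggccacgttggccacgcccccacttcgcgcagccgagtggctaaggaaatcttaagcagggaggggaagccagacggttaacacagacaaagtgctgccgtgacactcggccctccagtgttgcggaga
NANOS3, chr19:13861786-13862085: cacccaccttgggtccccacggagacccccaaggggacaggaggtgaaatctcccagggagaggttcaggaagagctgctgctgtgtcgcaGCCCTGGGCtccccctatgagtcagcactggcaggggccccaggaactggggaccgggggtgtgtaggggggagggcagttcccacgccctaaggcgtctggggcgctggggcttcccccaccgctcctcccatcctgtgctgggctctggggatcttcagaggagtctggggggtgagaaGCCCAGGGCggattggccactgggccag
PDPN, chr1:13583507-13583806: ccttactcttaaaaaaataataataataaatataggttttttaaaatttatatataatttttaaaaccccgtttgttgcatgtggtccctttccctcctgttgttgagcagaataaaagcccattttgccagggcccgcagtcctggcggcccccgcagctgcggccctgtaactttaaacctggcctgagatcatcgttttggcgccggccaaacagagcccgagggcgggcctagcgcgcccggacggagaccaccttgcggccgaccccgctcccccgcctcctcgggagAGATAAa

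The TFAP2 letters GCCNNNGGC stood once in this PRDM1 window, from base 147, and at bases 92 and 273 of the NANOS3 window. They were present in 5 of the 10 member windows, namely both of PRDM1, that of KLF4 and 2 of the 3 of NANOS3, and in 23.2% of all 35116 windows. The GATA letters AGATAA were in 2 of the 10 windows, which overlap each other at PDPN, and in 10.3% of all windows. The second GATA letters, the SOX letters and the KLF letters were in 0 of the 10 windows and in 7.53%, 10.1% and 3.28% of all windows. Both GATA strings share their ending, and GCCNNNGGC reads alike on both strands. A match is a description of the letters and not a bound site.

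SOX17, the factor that starts the germ-cell program, was the member that differed most between the libraries. It was counted in 1057 UMIs, or 10.6 CPM (9.98 to 11.3), of the WT library and in 28 UMIs, or 0.160 CPM (0.106 to 0.231), of the KO library. The intervals lie far apart, and the level in WT was 66.4-fold the other (45.7 to 100 within counting error). With 1 CPM added to each level the log2 ratio of GATA3 KO over WT was -3.32 (-3.40 to -3.22). The gene lies on chromosome 8 (54457935 to 54460892, GRCh38, plus strand) and overlaps no other gene of the GENCODE v44 annotation. In cells thinned at random to 10000 UMIs each, so that depth was equal, 75 of 2173 cells (3.45%, 2.72 to 4.31) of the WT library and 6 of 4038 cells (0.149%, 0.0546 to 0.323) of the KO library held a SOX17 UMI. The difference was -3.30 percentage points (-4.16 to -2.56). At full depth the shares were 6.59% and 0.270%.

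PRDM1, the repressor that acts after SOX17, was also lower in the KO library. Its 218 and 98 UMIs gave 2.19 CPM (1.91 to 2.50) and 0.559 CPM (0.454 to 0.681), a 3.92-fold difference (3.07 to 5.02) and a log2 ratio of -1.03 (-1.19 to -0.86). The interval of that ratio includes values short of a 2-fold difference on this scale. At 10000 UMIs per cell PRDM1 was found in 1.89% and 0.545% of cells, a difference of -1.34 points (-2.04 to -0.74). PRDM1 (chromosome 6, 105993463 to 106109939, plus strand) overlaps the unnamed gene ENSG00000269919 on its own strand and ATG5 on the other.

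The RNA-binding genes NANOS3 and DND1 were at low levels in both libraries. NANOS3 stood at 1.67 CPM (1.42 to 1.94) from 166 UMIs and at 1.61 CPM (1.43 to 1.81) from 283 UMIs. Its log2 ratio of -0.03 (-0.21 to 0.15) shows no difference beyond counting error, and it was in 1.79% and 1.44% of thinned cells. The sign of that ratio turned when per-cell CPM was averaged over cells (log2 ratio 0.34). DND1 stood at 1.51 CPM (1.27 to 1.77) and 0.867 CPM (0.735 to 1.02), for a log2 ratio of -0.42 (-0.60 to -0.25), with 39 of 2173 and 37 of 4038 thinned cells positive. DND1 shares its strand with HARS1 at chromosome 5 (140670794 to 140673576), so part of its count could belong to that gene. NANOS3 (chromosome 19, 13862063 to 13880757) holds the microRNA genes MIR181C and MIR181D.

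SOX15 and the surface glycoprotein gene PDPN were higher in the KO library. SOX15 stood at 3.69 CPM (3.32 to 4.08) and 5.91 CPM (5.56 to 6.28), for a log2 ratio of 0.56 (0.42 to 0.70). It was found in 3.36% and 5.18% of thinned cells, 1.82 points apart (0.741 to 2.84). SOX15 (chromosome 17, 7588178 to 7590094, minus strand) overlaps MPDU1 on the other strand. PDPN was the most abundant member at 71.3 CPM (69.6 to 73.0) and 120 CPM (119 to 122), for a log2 ratio of 0.75 (0.71 to 0.79). It was in 46.9% of the thinned WT cells and in 66.4% of KO cells. Of 3 mesenchyme genes, which can accompany PDPN, VIM (174 and 289 CPM) and COL1A1 (15.2 and 29.4 CPM) were higher in KO and PDGFRA (2.16 and 1.39 CPM) was lower. PDPN lies on chromosome 1 (13583465 to 13617957, plus strand) with no overlapping gene.

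KLF4, a pluripotency factor, did not differ beyond counting error. It stood at 1.48 CPM (1.25 to 1.74) and 1.26 CPM from 221 UMIs, a log2 ratio of -0.13 (-0.31 to 0.05), and in 1.56% and 1.24% of thinned cells. KLF4 is also an immediate-early gene, which cell handling can raise. Of 8 other immediate-early genes 7 reached 1 CPM, and 0 of those were 2-fold higher or lower with 1 CPM added. Without the added 1 CPM, JUNB at 4.85 and 2.18 CPM was 2.23-fold lower in KO (1.94 to 2.55). JUN was at 8.81 and 15.7 CPM. KLF4 (chromosome 9, 107484852 to 107490482, minus strand) overlaps the antisense gene ENSG00000289987.

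**Figure D1:**
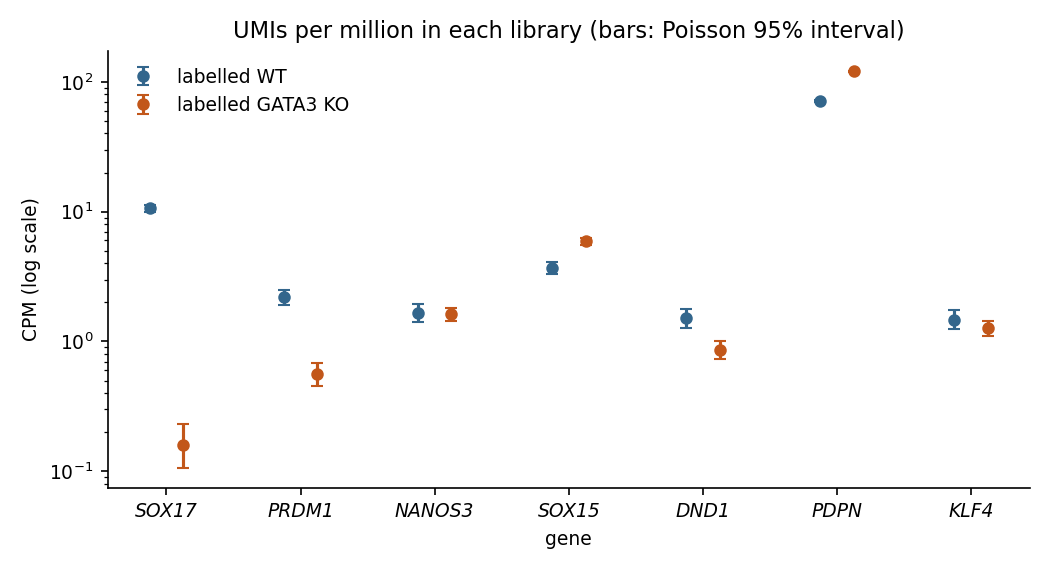
Level of each of the 7 genes in the 2 libraries, in CPM on a log axis, with Poisson 95% intervals that cover counting error only. SOX17 stands at 10.6 and 0.160 CPM and PRDM1 at 2.19 and 0.559 CPM, whereas the intervals of NANOS3 and of KLF4 overlap between the libraries.

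A difference of 2-fold or more on this scale was reached downward by SOX17 and PRDM1, 2 of 7 members, and upward by 0. Of the 13523 genes that reached 1 CPM in either library, 2.27% were lower in KO by that measure and 2.06% were higher. The members' median log2 ratio was -0.13, beside 0.07 over all of these genes. In order of level in WT the members ran PDPN, SOX17, SOX15, PRDM1, NANOS3, DND1 and KLF4, where the intervals of PRDM1 and NANOS3 overlap, as do those of NANOS3, DND1 and KLF4. In the KO library the order was PDPN, SOX15, NANOS3, KLF4, DND1, PRDM1 and SOX17, with overlap of NANOS3 and KLF4. Each UMI marks 1 transcript 3′ end, so these levels need no correction for gene length.

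**Figure D2:**
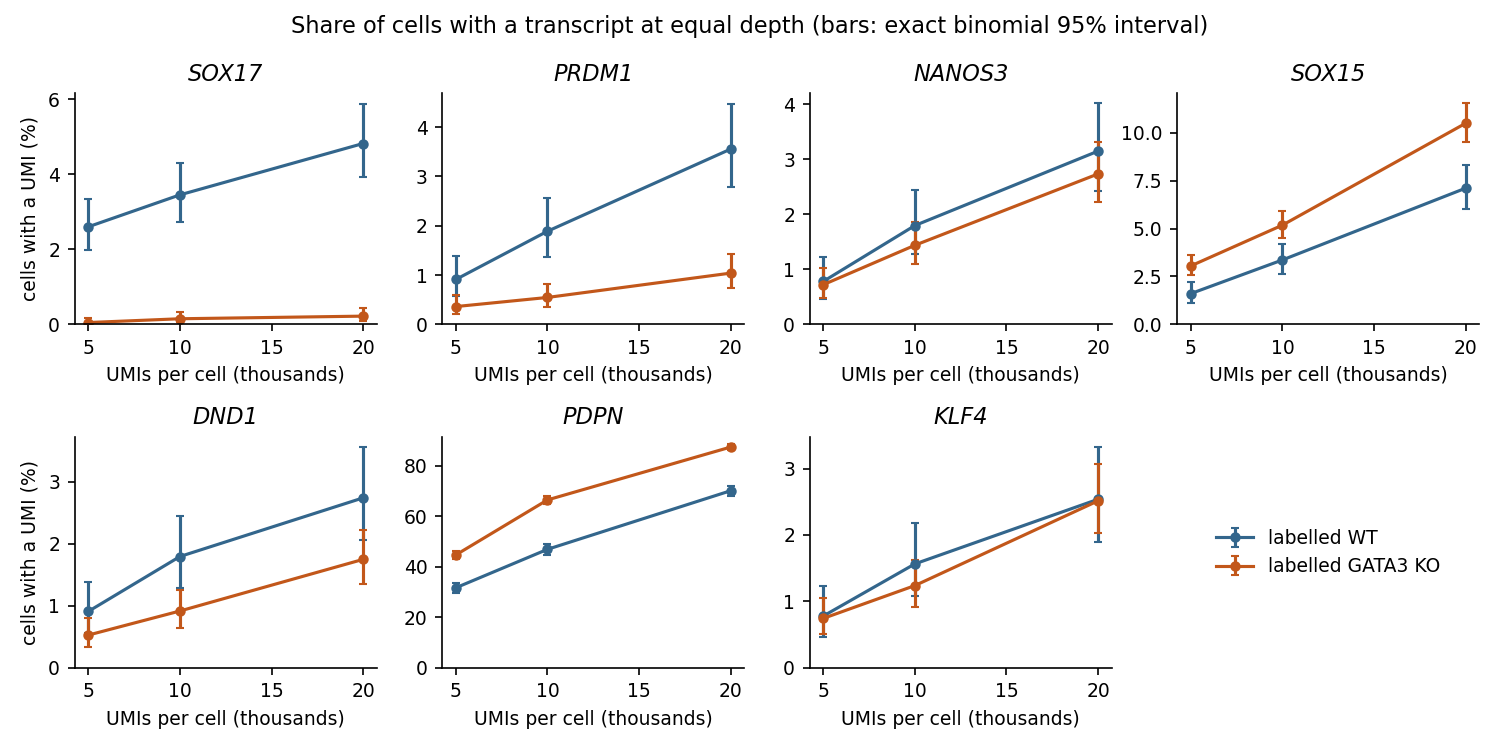
Percent of cells with at least 1 UMI of each gene after every cell was thinned to 5000, 10000 or 20000 UMIs, with exact binomial 95% intervals, in the 2 libraries. At each of the 3 depths SOX17 and PRDM1 are found in a larger share of the WT cells, and SOX15 and PDPN in a larger share of the KO cells.

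SOX17 transcripts were held by few cells. At full depth 166 of the 2519 WT cells held any, and 88 of these had 1 UMI. At the other end, 34 cells held 10 UMIs or more, up to 65, and these cells carried 801 of the 1057 UMIs (75.8%). The KO library had 12 positive cells, of which 8 held 1 UMI and 1 held 10. PRDM1 reached 8 UMIs in a WT cell and 4 in a KO cell. DND1 and KLF4 had no cell above 2 UMIs in either library, and 98.0% and 92.7% of their positive WT cells held a single UMI. PDPN was spread over 79.7% of the WT cells and 89.5% of KO cells, with medians of 3 and 5 UMIs per positive cell.

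The cells with the most SOX17 also held the most PRDM1. In the WT library, PRDM1 was found in 3.3% of the 2353 cells without SOX17, in 10.2% of the 88 cells with 1 SOX17 UMI, in 7 of the 28 cells with 3 to 9, and in 79.4% (62.1 to 91.3) of the 34 cells with 10 or more. Its level ran from 1.02 CPM in cells without SOX17 to 44.8 CPM in cells with 10 or more. The median depth was 43950 UMIs in cells without SOX17 and 51718 in cells with 10 or more, and the part of depth was not tested. NANOS3 was in 4.3% of the first class and in 39.3% and 26.5% of the last 2 classes, at 1.25, 11.1 and 8.04 CPM. TFAP2C, the partner of SOX17 and PRDM1, was in 25.5% of cells without SOX17 and in 55.9% of the cells with 10 or more.

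SOX2 ran the other way. It was detected in 69.1% of the WT cells without SOX17 and in 1 of the 34 cells with 10 or more SOX17 UMIs (2.94%, 0.0744 to 15.3), at 160 and 0.574 CPM. NANOG was in 74.7% and 76.5% of the same classes, yet its level was 77.8 CPM (76.0 to 79.6) in the first and 36.2 CPM (27.8 to 46.3) in the last. POU5F1 was in 34 of those 34 cells, at 927 CPM in cells without SOX17 and 756 CPM in cells with 10 or more. Genes of endoderm and of the anterior streak were also more frequent in the SOX17-rich cells. CER1 was in 14.7% of cells without SOX17 and 70.6% with 10 or more, GATA6 in 6.2% and 55.9%, and GATA4 in 6.6% and 32.4%. FOXA2, which marks definitive endoderm, was in 0.6% and in 3 of 34 cells (8.82%, 1.86 to 23.7). The streak genes TBXT (30.3% and 79.4%) and MIXL1 (39.7% and 85.3%) rose between these classes too. So did the amnion or trophectoderm gene TFAP2A (24.3% and 73.5%) and GATA3 (19.3% and 58.8%). The other 4 members were not more frequent in the SOX17-rich cells. SOX15 was in 12.4% of cells without SOX17, DND1 in 6.0% and KLF4 in 5.5%, and each was in 1 of the 34 cells with 10 or more, while PDPN was in 79.5% and 79.4%. Transcripts of some germ-cell, endoderm, streak and amnion genes were found in these cells, so the 7 genes are grouped here by their known use in germ cells and name no cell type.

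**Figure D3:**
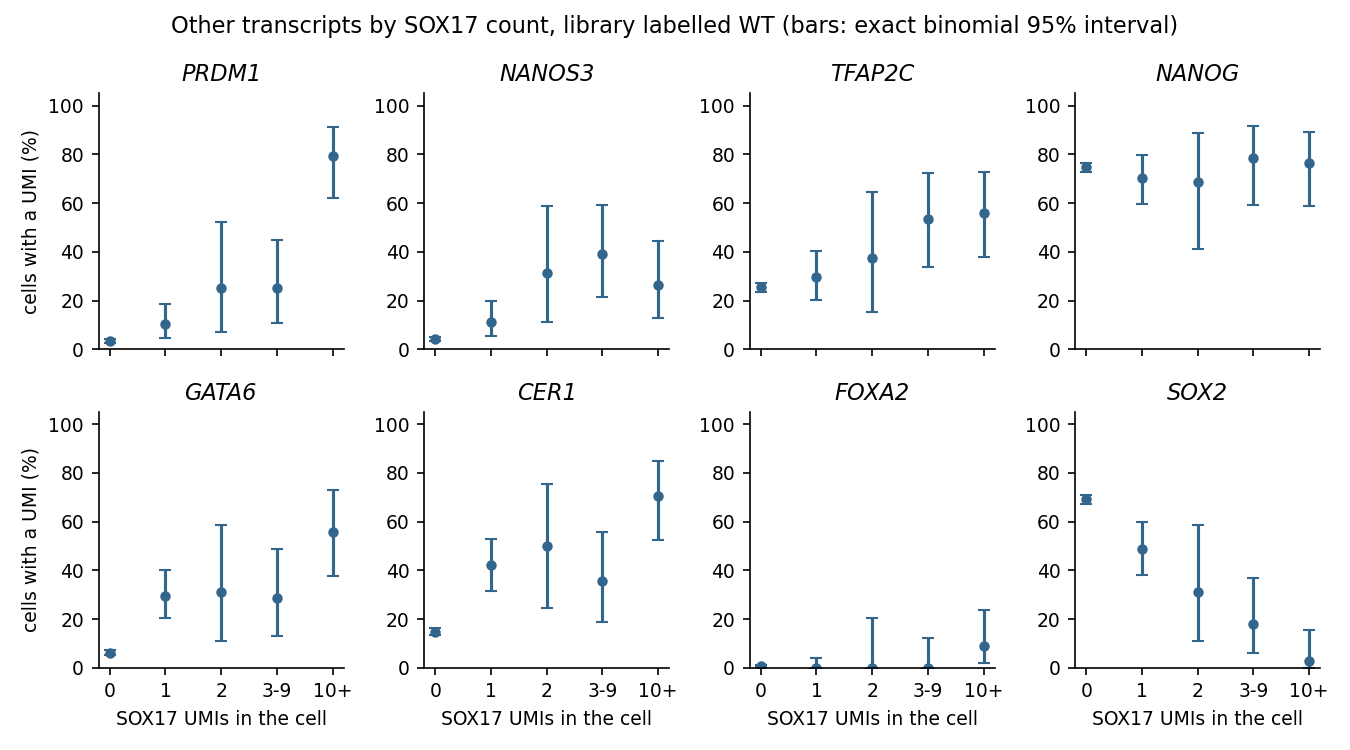
Percent of WT cells with at least 1 UMI of 8 other genes, by the number of SOX17 UMIs in the cell at full depth, with exact binomial 95% intervals over 2353, 88, 16, 28 and 34 cells. PRDM1, GATA6 and CER1 are most frequent and SOX2 least frequent in the 34 cells with 10 or more SOX17 UMIs.

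Cells that held several of these transcripts at once were also counted at full depth. SOX17, PRDM1 and TFAP2C were found together in 25 of 2519 WT cells (0.992%, 0.643 to 1.46). Of these, 24 lacked SOX2 and 20 lacked SOX2 and held NANOG. SOX17, PRDM1 and NANOS3 were together in 17 cells. SOX17, PRDM1 and GATA6 were together in 26 cells, and SOX17 with FOXA2 in 3. In the KO library, SOX17, PRDM1 and TFAP2C were together in 1 of 4450 cells, and that cell held SOX2. SOX17, PRDM1 and NANOS3 were together in 0 of 4450 cells there.

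Co-detection at equal depth was set against the number of cells given by the product of the shares of both genes. In the WT library at 10000 UMIs, SOX17 and PRDM1 met in 12 cells where the product gave 1.42, a ratio of 8.48 (4.38 to 14.8). Without the cells of highest doublet score, which can hold RNA of several cells, that ratio was 10.7. The score called too few doublets to be relied on, so the part of doublets was not tested. SOX17 and NANOS3 met in 5 cells where the product gave 1.35, a ratio of 3.71 (1.21 to 8.67). These 2 of the 21 pairs of members had an interval above 1, and 0 had one below 1. The interval takes the product as fixed. How many pairs of other genes pass 1 by this rule was not counted. By the phi coefficient described below, NANOS3 was at rank 152 of 13100 genes for SOX17. SOX17 and SOX15 met in 0 cells where the product gave 2.52. At 20000 UMIs the pair PRDM1 and NANOS3 joined them, with 9 cells against 2.20. Cell groups hold different shares of both genes, so the product was also taken inside the groups defined next and summed. SOX17 and PRDM1 then had a product of 2.12 and a ratio of 5.66 (2.92 to 9.88), and SOX17 and NANOS3 a ratio of 2.39 (0.775 to 5.57), whose interval includes 1.

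In the KO library at 10000 UMIs, 0 of the 21 pairs had an interval apart from 1, and 10 pairs had a product of at least 1 cell. SOX17 and PRDM1 met in 0 of 4038 cells, which allows a share of up to 0.0743%, but with 6 and 22 positive cells a meeting was not detectable at this depth. SOX17 and NANOS3 met in 6 cells at full depth where the product gave 0.634, which is 50.0% of the 12 SOX17-positive cells. For SOX15 and PDPN the interval passed 1 in both libraries at full depth alone, and at 10000 UMIs they met in 35 WT cells against a product of 34.2 and in 155 KO cells against 139.

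**Figure D4:**
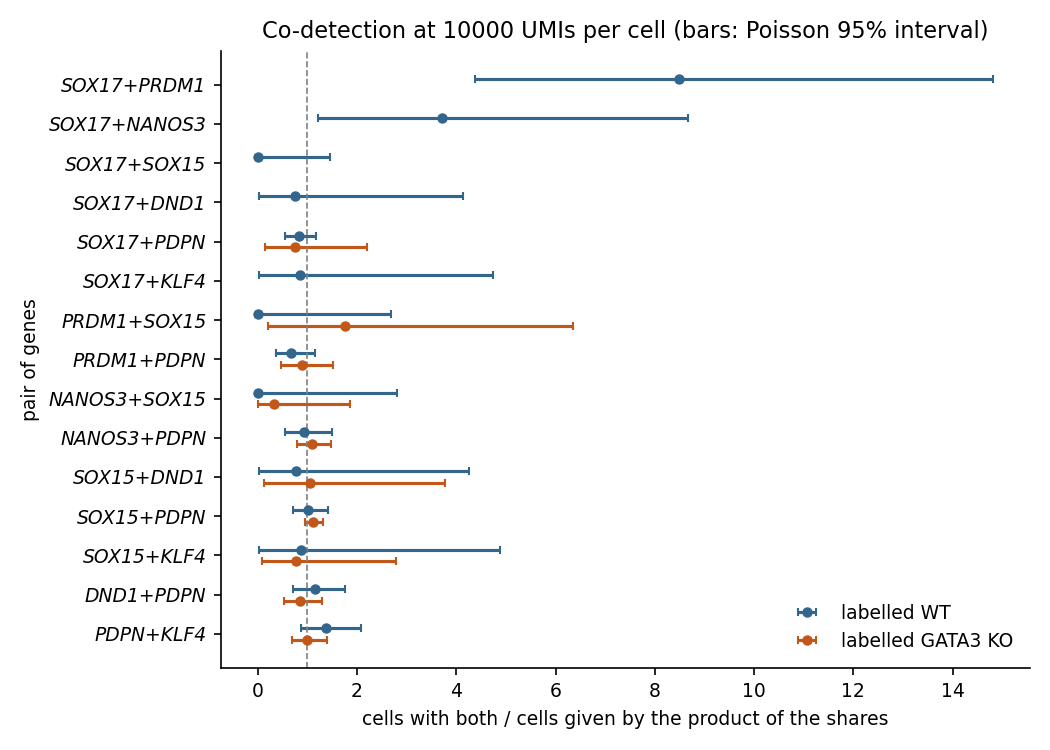
Cells with both transcripts divided by the number given by the product of the shares, at 10000 UMIs per cell, for the 15 pairs with a product of at least 1 WT cell, with Poisson 95% intervals. A library is drawn for a pair where its product is at least 1. SOX17 with PRDM1 (8.48) and SOX17 with NANOS3 (3.71) lie above 1 in the WT library.

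Levels were then compared inside cell groups set by other genes, in cells thinned to 10000 UMIs. Streak-gene cells held at least 2 UMIs of TBXT, MIXL1, EOMES and MESP1 together, and amnion-gene cells at least 2 of TFAP2A, HAND1, ISL1, VTCN1 and GABRP. SOX2 cells held at least 2 SOX2 UMIs and neither of those sums. No cluster analysis was used, and the groups are ranges of counts and not cell types. The WT library had 681 streak-gene, 88 amnion-gene, 30 double, 729 SOX2 and 645 remaining cells. The KO library had 62, 390, 5, 2999 and 582. The number of UMIs lay at the cut in 150 of the 681 and 28 of the 88 WT cells. In the KO library it lay there in 27 of the 62 streak-gene and 128 of the 390 amnion-gene cells. Groups of the same name were not alike in other genes. In streak-gene cells GATA6 was at 21.5 CPM in WT and 1.36 CPM in KO, and NANOG at 78.6 and 134 CPM. SOX2 was higher in the KO streak-gene cells too, whereas the intervals of TFAP2C overlap. In amnion-gene cells SOX2 was at 5.62 and 76.7 CPM, whereas the intervals of GATA6 and NANOG overlap. The part of these differences in the ratios inside groups was not tested.

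Most SOX17 UMIs of the WT library lay in cells with streak genes, although amnion-gene cells had a like level. It stood at 19.1 CPM (17.6 to 20.7) in streak-gene cells, 22.2 CPM (17.4 to 27.8) in amnion-gene cells, 9.73 CPM in the remaining cells and 0.219 CPM (0.0878 to 0.450) in SOX2 cells. The highest level was that of the 30 double cells, at 51.6 CPM (40.0 to 65.5) from 67 UMIs in 8 cells. That interval counts UMIs as independent, and 23 of the 30 cells lay at a cut. At 10000 UMIs SOX17 was in 3 of the 30 (10.0%, 2.11 to 26.5). Streak-gene and double cells held 64.9% of the SOX17 UMIs in WT. The SOX2 cells serve as the background, with SOX17 in 0.137% of them at 10000 UMIs beside 6.31% of streak-gene cells, at median depths of 45863 and 49106 UMIs. Among amnion-gene cells SOX17 was in 11 of 88 (12.5%, 6.41 to 21.3), an interval that overlaps that of streak-gene cells (4.61 to 8.41). The level of SOX17 in the KO library was 5.79 CPM (3.37 to 9.26) in the 62 streak-gene cells, from 17 UMIs in 4 cells, and 0.174 CPM (0.0358 to 0.508) in amnion-gene cells. Inside streak-gene cells the log2 ratio was -1.57 (-2.21 to -0.96), inside amnion-gene cells it was -4.30 (-4.53 to -3.86), and inside the remaining cells -3.11 (-3.32 to -2.79). These intervals count UMIs as independent, though the 17 KO UMIs of streak-gene cells lay in 4 cells. The streak-gene and amnion-gene cells of the libraries also differed in other genes, as given above. At 10000 UMIs SOX17 was in 6.31% (4.61 to 8.41) of WT and 4.84% (1.01 to 13.5) of KO streak-gene cells. Those 2 shares did not differ beyond counting error. SOX2 cells held 7 SOX17 UMIs in WT and 2 in KO.

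PRDM1 was at its lowest in SOX2 cells of the WT library too, with 3.75 CPM (3.11 to 4.48) in streak-gene, 2.96 CPM (1.42 to 5.44) in amnion-gene and 0.593 CPM (0.357 to 0.926) in SOX2 cells. In the 30 double cells it was at 5.39 CPM (2.17 to 11.1), from 7 UMIs. It was in 3.38% of streak-gene and 0.823% of SOX2 cells at 10000 UMIs. In SOX2 cells the libraries did not differ beyond counting error, with 0.467 CPM in KO and a log2 ratio of -0.12 (-0.41 to 0.15). In streak-gene cells 1 PRDM1 UMI was counted in the KO library, and the log2 ratio was -1.82 (-2.24 to -0.69).

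NANOS3 was highest in amnion-gene cells of both libraries, at 5.03 CPM (2.93 to 8.05) and 6.31 CPM (5.18 to 7.62), and lowest in SOX2 cells, at 0.656 and 0.716 CPM. Its log2 ratio inside amnion-gene cells was 0.28 (-0.36 to 0.95). Cells positive for NANOS3 held TFAP2A more often than other cells, in 33.3% against 11.0% in WT and in 44.8% against 17.4% in KO, and SOX2 less often, in 23.1% against 55.0% and in 60.3% against 86.9%.

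SOX15 and KLF4 stood higher in SOX2 cells than in streak-gene cells of the WT library. The level of SOX15 was 5.21 CPM (4.45 to 6.07) beside 1.94 CPM (1.48 to 2.48), and that of KLF4 2.31 CPM (1.81 to 2.90) and 0.843 CPM (0.556 to 1.23). The log2 ratio of SOX15 was 0.21 (0.00 to 0.42) inside SOX2 cells, 0.41 (0.11 to 0.72) inside the remaining cells, 1.13 (0.43 to 1.79) inside streak-gene cells and -0.16 (-0.79 to 0.50) inside amnion-gene cells. KLF4 was lower in SOX2 KO cells, with a log2 ratio of -0.55 (-0.82 to -0.28). DND1 had 1.94 CPM in SOX2 cells and 1.25 CPM in streak-gene WT cells, with intervals that overlap, and its log2 ratio inside SOX2 cells was -0.58 (-0.85 to -0.30).

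PDPN was lowest in streak-gene WT cells, at 45.4 CPM (43.1 to 47.8), and stood at 93.1 CPM (89.7 to 96.5) in SOX2 cells and 109 CPM (98.2 to 121) in amnion-gene cells. It was higher in the KO library in each of the 5 groups, with log2 ratios from 0.30 (0.24 to 0.35) in SOX2 cells to 1.53 (0.96 to 2.09) in double cells, which number 5 there.

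**Figure D5:**
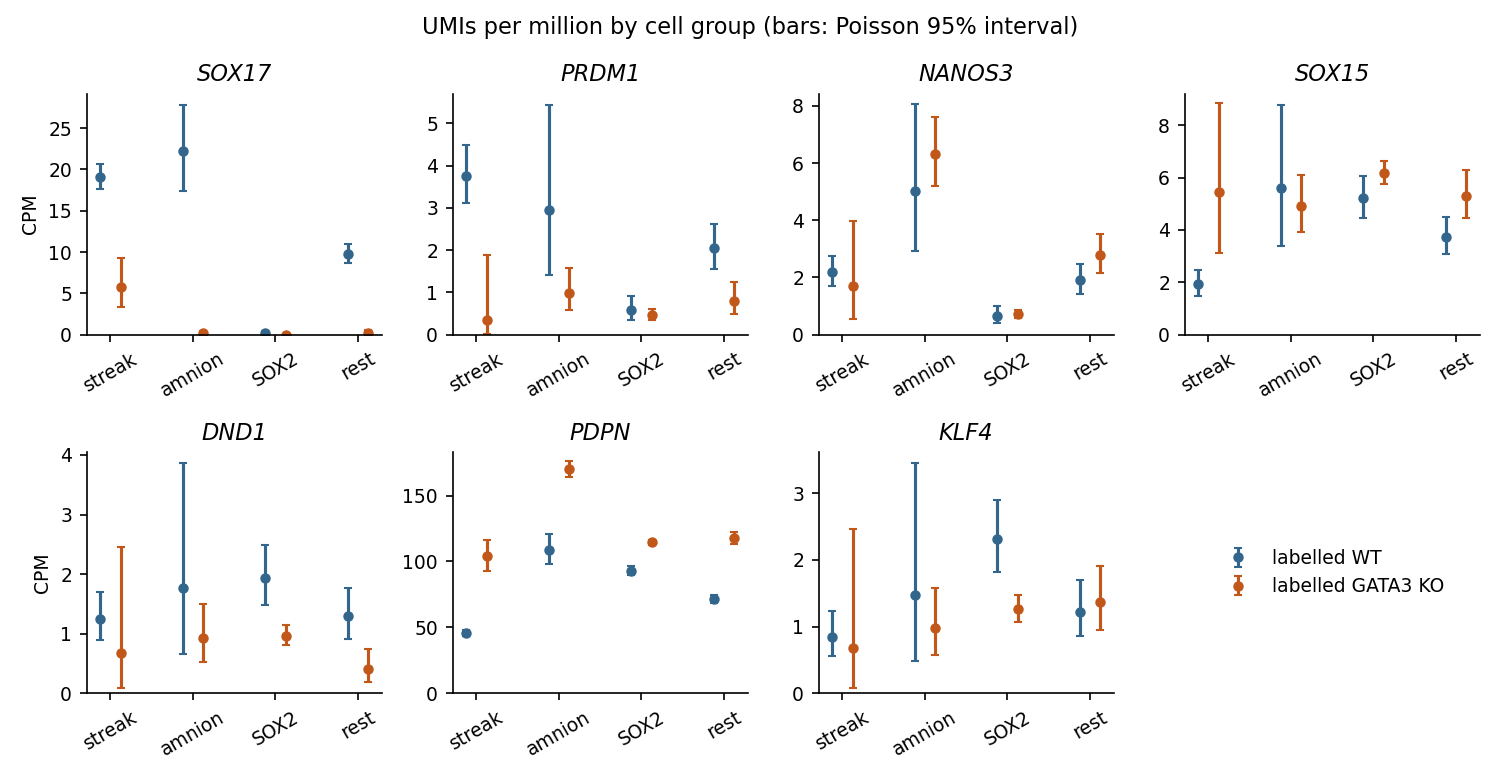
Level of each gene in CPM in streak-gene, amnion-gene, SOX2 and remaining cells of both libraries, with Poisson 95% intervals; the double group is not drawn because it holds 5 cells in the KO library. Among the groups drawn of the WT library, SOX17 and PRDM1 are lowest in SOX2 cells. NANOS3 is highest in amnion-gene cells of both libraries, and PDPN is higher in the KO library in every group drawn.

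The genes whose detection was most like that of a member were ranked by the phi coefficient, a correlation of presence and absence across thinned cells, for members with at least 50 positive cells. All values were low, and the cells share a library and a depth. For SOX17 among 13100 genes in WT the first was PRDM1 (phi 0.20, 2173 cells), followed by ATP12A (0.19), HAS2 (0.17), MESP1 (0.17) and HAPLN1 (0.16), and NANOS3 was at rank 152. PDPN in WT was nearest to PODXL (0.17), LRRN1, SFRP1, SOX2 and APELA. SOX15 had no value above 0.11 in WT, where ZNF718 (0.11), AC087623.4, MAP1LC3B2, HELB and TTN came first. NANOS3 in KO was nearest to WNT6 (0.12), AMER2, HPGD, IGFBP7 and GATA3 (0.10). There PDPN was nearest to POSTN (0.09), TMEM54, BMP4, MSX1 and LHFPL6. SOX15 was nearest to CNOT6 (0.07), FAM71F1, OSMR, AC005034.3 and DNAAF3, and KLF4 to PGBD5 (0.08), AGER, ARHGAP39, CLYBL and GNG10.

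Of 20 further genes of the germ-cell program 14 reached 1 CPM, of which 0 were 2-fold lower and 2 were 2-fold higher in the KO library with 1 CPM added, at a median log2 ratio of 0.28. Without the added 1 CPM, DPPA5, a gene of pluripotent and germ cells, was 2.08-fold lower in KO (1.69 to 2.56), at 2.03 and 0.976 CPM (log2 ratio -0.62 with it). The 2 genes past 2-fold higher are both expressed in pluripotent cells too. PRDM14, a transcriptional regulator of germ cells and of stem cells, stood at 2.62 and 9.18 CPM (log2 ratio 1.49), and UTF1, a chromatin factor of stem cells, at 9.56 and 26.8 CPM (1.40). TFAP2C was at 12.2 and 10.6 CPM, a log2 ratio of -0.19 (-0.29 to -0.09), NANOG at 75.6 and 55.7 CPM (-0.44), POU5F1 at 918 and 1480 CPM (0.69), and the receptor gene KIT at 7.34 and 6.40 CPM (-0.17). DPPA3 (STELLA), a gene of later germ cells, was under 1 CPM in both libraries at 0.321 and 0.251, and DDX4, CD38, CXCR4, TFCP2L1 and MAEL were under 1 CPM as well. SOX2 itself was at 150 and 389 CPM (1.37).

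Marker lists were read in the same way. All 4 streak genes were 2-fold lower in the KO library, their summed level being 243 and 12.0 CPM, and so were GATA4, GATA6, CER1 and GSC, 4 of the 5 endoderm genes of at least 1 CPM, with FOXA2, TTR and APOA2 under 1 CPM in both libraries. Of 4 amnion or trophectoderm genes of at least 1 CPM, 1 was 2-fold higher, TFAP2A, and VTCN1 was under 1 CPM. HAND1 (log2 ratio 0.13) was higher as well, and ISL1 (-0.60) and GABRP (-0.19) were lower. The cell limits removed 65.8% of TFAP2A UMIs in WT and 38.3% in KO, and 71.4% and 35.6% for HAND1. Of all UMIs they removed 100982375 of 200569649 in WT and 108994533 of 284280464 in KO. The part of the limits in these ratios was not tested. Of 5 pluripotency genes 1, SOX2, was 2-fold higher, and of the 4 germ-cell markers of at least 1 CPM (TFAP2C, NANOS3, KIT, DAZL) 0 were past 2-fold. Blood and endothelial genes PECAM1, CDH5 and PTPRC were under 1 CPM, and KDR stood at 81.6 and 41.3 CPM. Of 3 mesenchyme genes 0 were past 2-fold. The part of these lists in the levels of SOX17 and PRDM1 was not tested. Inside streak-gene, amnion-gene and remaining cells, SOX17 was lower in the KO library by CPM, as given above. The streak-gene and amnion-gene cells of the libraries were not alike in other genes. In streak-gene cells its share of positive cells did not differ beyond counting error.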

How the data were processed

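Both libraries were made by the study with 10x Genomics 3′ v3 chemistry. The authors aligned reads with Cell Ranger 3.0.2 (version per the file headers) to its GRCh38 human reference, and deposited raw counts of UMIs per gene and called cell. Such counts need no length correction, sample 3′ ends, and can lose or misplace reads of near-identical or overlapping genes. Cells with more than 7500 detected genes or more than 25% mitochondrial counts were removed, since the study applies both limits and no cell failed both. This left 2519 of 3802 WT cells and 4450 of 6221 KO cells. Scrublet (scanpy 1.11.5) called 1 and 2 doublets, too few for a caller that works, so none were removed; leaving out the 57 and 171 kept cells of highest score was an alternative.

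Counts were summed per library and divided by its total (CPM). Ratios are log2 with 1 CPM added, which understates changes of low genes. Intervals are Poisson for CPM, Clopper-Pearson for shares, at 95%, and a count of 0 is given with 3 counts as its upper limit; all cover counting error only, as PCR and capture add their own. For shares, cells were thinned to 10000 UMIs, which left out 346 and 412 shallower cells. TMM factors came from edgeR 4.0.16 (R 4.3.3) as an alternative scaling. Analyses ran in Python 3.11.15 (numpy 2.4.6, scipy 1.17.1) and were tested on simulated data. Gene positions came from GENCODE v44.

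Genes named are all 7 members, TFAP2C, NANOG, POU5F1, PRDM14, KIT, DPPA3 and any others of 20 further germ-cell genes past 2-fold, SOX2, GATA3, members of the marker lists, and the 5 nearest by phi among genes in at least 1% of thinned cells. Further genes of these lists under 1 CPM are named as such. JUN, JUNB, VIM, COL1A1, PDGFRA, KDR, DPPA5, ITGA6 and the companion genes of SOX17- and PRDM1-positive cells were chosen after their values were seen. The members and lists were chosen with earlier results of these data known. SOX17 UMI classes and the within-group products were added after seeing the data. Each group is 1 library, so the design gives no test, replicate or batch comparison.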

Additional observations from a re-analysis of the deposited data

Results flagged for a closer look

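Cells removed by the limits on detected genes and mitochondrial counts were in no comparison above, and in the KO library 2 members stood in them above the level of the removed WT cells, beyond counting error. SOX15 was at 5.78 CPM in the 1771 removed KO cells and 4.06 CPM in the 1283 removed WT cells. PDPN was at 115 CPM and 77.4 CPM. Both differ in the direction seen in the kept cells. SOX17 in the removed cells was at 7.87 CPM in WT and 0.0734 CPM in KO. With 1 library in each group, samples of a group were not compared with one another.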

How the results depend on the processing

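The 2 members past 2-fold lower, SOX17 and PRDM1, and the 0 past 2-fold higher were counted alike under each of the 12 alternatives of cell limits, scaling, pseudocount and minimum level. The alternatives of minimum level could not change these counts, because the minimum was applied to all genes tested and not to the members. PRDM1, at 2.19 and 0.559 CPM, lies under the alternative minimum of 5 CPM. The log2 ratio of SOX17 was -3.18 over all deposited cells, -3.19 with only the mitochondrial limit, -3.46 with totals without mitochondrial counts, -3.19 as a mean of per-cell CPM and -5.37 with a pseudocount of 0.1 CPM. That of PRDM1 lay between -1.80 and -1.01. The detection difference of SOX17 was -2.55 points at 5000 UMIs per cell, -4.60 at 20000, -6.32 without thinning and -1.61 for at least 2 UMIs. The co-detection ratio of SOX17 and PRDM1 in WT was 16.5 at 5000 UMIs and 48.3 for at least 2 UMIs, where few cells are positive, and SOX17 and NANOS3 met in 0 cells at 2 UMIs. The share of SOX17 UMIs in cells with streak genes was 78.0% with a cut of 1 UMI and 58.8% with a cut of 3. Genes lower by 2-fold were 3.99% of those tested with the smaller pseudocount and 1.23% with no minimum level, and genes higher were 4.02% and 1.12%. Of the 238 recomputed values, counts, percentages and co-detection ratios have no sign that could turn. Among the log2 ratios and detection differences past counting error in the main setting, no sign turned. The detection difference of DND1 was 0 for at least 2 UMIs. The cause of these shifts was not tested, except that a smaller pseudocount widens ratios of low genes by construction.

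No paired analysis was possible because each group is 1 library. Members near 1 CPM rest on 98 to 283 UMIs per library, and SOX17 in KO on 28, so a difference of less than about the width of the printed intervals was not detectable. At 10000 UMIs 1 UMI equals 100 CPM in a cell, so absence in a cell says little about genes other than PDPN. Culture, capture and clone cannot be told apart from genotype.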

Other observations

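Further genes were compared between SOX17-positive and other thinned cells of the WT library. HAND1, a factor of amnion and lateral mesoderm, was in 20.0% of the 75 positive cells and 3.96% of the 2098 negative cells. ITGA6, an integrin gene that is also used to sort germ cells, was less frequent, in 9.33% and 37.1%. The receptor gene KIT, in 9.33% and 7.67%, did not differ beyond counting error in these thinned cells. At full depth KIT was in 23.3% (21.6 to 25.1) of the WT cells without SOX17. It was in 14.3% of those with 3 to 9 SOX17 UMIs and 44.1% (27.2 to 62.1) of those with 10 or more. By CPM the first and last class overlap, at 7.33 (6.79 to 7.90) and 10.3 (6.12 to 16.3).

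PRDM1-positive WT cells held CER1 in 48.8% of 41 cells against 9.85% of the others, and GATA6 in 22.0% against 3.71%, whereas TFAP2C was in 12.2% against 10.1%.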
